A study of Mus musculus with 24 samples.

Results

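The chromatin accessibility landscape of normal germinal centre (GC) B cells was described from 4 wild-type ATAC-seq libraries, out of 17 libraries in the deposited count table and 24 samples in the series. No measured value chose these libraries: they are those labelled WT, and every autosomal consensus peak was kept, 63881 of 65483 peaks. ATAC-seq uses a transposase that inserts adapters where DNA is not covered by nucleosomes, so the number of fragments in a peak measures how open that stretch is. The level of a peak is given as counts per 1e6 fragments in peaks (CPM) and, to compare peaks of different width, as CPM per kb of peak.

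WT mice carried Cg1Cre+/-, a Cre recombinase driven from the Ighg1 locus and therefore active in B cells that transcribe that constant region, with no floxed allele. The 3 other genotypes carried the same Cre with Crebbp fl/+ (C), Kmt2d fl/+ (K) or both floxed alleles (CK), so Cre was shared by all of them and a Cre-free control was not analysed here. All mice received sheep red blood cells and their spleens were taken at day 10. Mice were on the C57BL/6J background, described as female and 8 weeks of age for this assay, with 8 to 12 weeks as the general range. GC B cells were sorted as live B220+ CD38- FAS+ cells after enrichment on peanut agglutinin, and 60000 cells went into each reaction. Replicates were separate mice. A further 7 WT samples of sorted centroblasts and centrocytes were not analysed here. In these bulk libraries, a peak open in few cells cannot be told apart from one that is weakly open in many.

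GC B cells are antigen-activated B cells that divide rapidly, mutate their immunoglobulin genes and compete for help from follicular T cells. Bcl6, a repressor that GC formation needs, marks them. Pax5, which holds cells in the B lineage, and Cd79a, a signalling chain of the B-cell receptor, mark the B lineage as a whole. Promoters of active genes are mostly broad, GC-rich and open in many tissues, whereas distal elements carry more of the cell-type-specific pattern.

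The 4 WT libraries held 18293297 to 21016819 fragments in peaks, with a median of 79 to 96 fragments per autosomal peak. Mitochondrial fragments made up 1.81% of WT replicate 1 and 1.02 to 1.05% of the other 3 libraries. Peaks on the short arm of the Y chromosome held 1474 and 1537 fragments in WT replicates 1 and 2 and 0 in replicates 3 and 4, although the study names female mice. X-linked peaks took 1.46% and 1.48% of fragments in the first pair and 1.60% and 1.59% in the second. Sex-linked peaks entered no level, ranking or share given below. The totals behind CPM still included X, Y and mitochondrial fragments. The comparisons between genotypes are given also within the libraries with and without Y fragments. A level of 1 CPM corresponds to about 20 fragments per library, and no interval given here covers more than counting error or the spread between mice.

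The sequences of the most open and of the nearly closed promoters are shown first, to set the motifs at both ends of the range beside each other. All 8 promoters looked up were found in the RefSeq promoter table (GRCm38.p6), and the bases printed are the stretch of up to 200 bases before the annotated start that lies outside exons. Each is printed in the direction of transcription, and all matched the mm10 genome. Capitals mark matches on either strand to one of 14 searched motifs, among them the GC box GGGCGG (bound by SP1-family factors), the CCAAT box CCAAT (bound by NF-Y), the GC-rich ETS site CCGGAAGT and the CTCF core CAGNGGGCG. The most open single-copy promoters were those of Khsrp (chr17:57031523-57031707, minus strand), Hdgfl2 (chr17:56079431-56079630, plus strand), Cic (chr7:25267499-25267698, plus strand) and Sp1 (chr15:102406116-102406315, plus strand). The Sp1 stretch lies in an intron of a longer Sp1 transcript and the other 3 are intergenic.
Khsrp: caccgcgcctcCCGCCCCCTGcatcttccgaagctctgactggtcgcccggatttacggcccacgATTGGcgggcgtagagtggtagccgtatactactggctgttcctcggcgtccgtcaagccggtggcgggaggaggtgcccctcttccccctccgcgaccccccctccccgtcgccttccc
Hdgfl2: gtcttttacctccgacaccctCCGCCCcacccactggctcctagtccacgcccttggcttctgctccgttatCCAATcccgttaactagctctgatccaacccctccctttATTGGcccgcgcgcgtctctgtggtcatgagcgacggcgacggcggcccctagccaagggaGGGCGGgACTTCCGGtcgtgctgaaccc
Cic: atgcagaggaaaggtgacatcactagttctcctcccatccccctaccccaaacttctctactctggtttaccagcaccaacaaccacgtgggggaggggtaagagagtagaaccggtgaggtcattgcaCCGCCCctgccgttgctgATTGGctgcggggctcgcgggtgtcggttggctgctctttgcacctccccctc
Sp1: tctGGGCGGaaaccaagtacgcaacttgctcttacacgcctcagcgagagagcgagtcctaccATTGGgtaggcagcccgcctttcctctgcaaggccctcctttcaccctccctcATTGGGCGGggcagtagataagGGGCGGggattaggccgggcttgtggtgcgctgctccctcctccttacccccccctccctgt
All 4 held at least 1 GC box and at least 1 CCAAT box. In Khsrp the GC box overlaps a CTCF core, and in Sp1 a GC box overlaps a CCAAT box, so the capitals of each such pair run together.

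The marker promoters Bcl6 (chr16:23988853-23989052, minus strand) and Cd79a (chr7:24897297-24897380, plus strand), both intergenic, are printed for comparison.
Bcl6: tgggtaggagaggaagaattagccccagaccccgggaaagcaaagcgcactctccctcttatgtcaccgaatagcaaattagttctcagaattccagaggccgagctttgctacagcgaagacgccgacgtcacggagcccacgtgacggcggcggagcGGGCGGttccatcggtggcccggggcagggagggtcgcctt
Cd79a: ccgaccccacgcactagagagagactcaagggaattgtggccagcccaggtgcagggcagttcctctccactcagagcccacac
Bcl6 held a GC box and no CCAAT box in this stretch, and the 84 bases of Cd79a outside exons held none of the 14 motifs, which says nothing about the factors that bind there. The stretches of Casz1 (chr4:148804192-148804391, plus strand) and Reln (chr5:22344706-22344905, minus strand), also intergenic, belong to promoter peaks that were nearly closed.
Casz1: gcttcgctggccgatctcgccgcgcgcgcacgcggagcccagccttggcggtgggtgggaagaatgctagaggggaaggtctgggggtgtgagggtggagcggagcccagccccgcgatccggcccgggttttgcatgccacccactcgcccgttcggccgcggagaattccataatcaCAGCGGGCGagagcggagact
Reln: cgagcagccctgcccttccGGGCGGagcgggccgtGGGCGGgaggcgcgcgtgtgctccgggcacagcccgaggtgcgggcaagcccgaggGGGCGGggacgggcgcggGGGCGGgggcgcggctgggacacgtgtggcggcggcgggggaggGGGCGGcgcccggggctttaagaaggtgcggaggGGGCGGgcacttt
Casz1 encodes a zinc-finger transcription factor and Reln the secreted neuronal glycoprotein reelin. Both stretches were GC-rich, at 69.0% and 81.0% G and C, against 59.0% to 69.2% in the 4 most open promoters, and Reln carried several GC boxes. Neither held a CCAAT box, and Casz1 held a CTCF core but no GC box.

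The centres of 3 of the most open distal peaks, each 200 bases on the plus strand, are printed as well, as examples of strong elements away from a start. The first lies in an intron of Mroh2a, 23639 bp from the start of Hjurp (chr1:88253106-88253305), the next is intergenic near Zfp869 (chr8:69716818-69717017), and the last lies in an intron of Gm20513 beside the MHC class II gene H2-Aa (chr17:34293643-34293842).
Hjurp side: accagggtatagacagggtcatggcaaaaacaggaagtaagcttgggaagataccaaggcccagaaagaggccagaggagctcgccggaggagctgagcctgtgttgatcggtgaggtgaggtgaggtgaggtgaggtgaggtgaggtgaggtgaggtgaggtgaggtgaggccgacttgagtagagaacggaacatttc
Zfp869 side: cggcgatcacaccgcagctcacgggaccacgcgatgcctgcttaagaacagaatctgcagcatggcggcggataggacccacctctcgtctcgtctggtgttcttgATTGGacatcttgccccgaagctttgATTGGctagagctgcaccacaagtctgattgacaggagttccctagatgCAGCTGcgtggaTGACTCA
H2-Aa side: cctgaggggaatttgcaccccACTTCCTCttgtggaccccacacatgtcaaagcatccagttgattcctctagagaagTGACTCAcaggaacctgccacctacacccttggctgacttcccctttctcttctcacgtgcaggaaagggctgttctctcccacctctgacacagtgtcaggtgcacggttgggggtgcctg
The Hjurp-side centre held none of the 14 motifs. The Zfp869-side centre held CCAAT boxes, an E-box CAGCTG and an AP-1 site TGANTCA, and the H2-Aa-side centre held a PU.1-type ETS site GAGGAAGT and an AP-1 site.

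Promoter peaks were far more open than distal peaks and took most of the fragments. A peak was called a promoter peak when it lay within 1 kb of the start of a protein-coding gene and distal when it lay more than 5 kb from any annotated start. The 12699 promoter peaks made up 19.9% of autosomal peaks and 29.8% of their length, and took 53.5%, 54.3%, 52.6% and 52.2% of autosomal fragments in WT replicates 1 to 4 (53.1% ± 0.948, SD, n = 4). The 38381 distal peaks made up 60.1% of peaks and took 31.4% ± 0.781 of fragments. The promoter share exceeded the distal share in every library, by far more than the SD of either. The median promoter peak measured 21.9 CPM per kb, with library medians of 22.1, 22.6, 21.6 and 21.4, and the median distal peak 3.73, with library medians of 3.65, 3.64, 4.00 and 3.76. WT replicates 1 and 2 were at the high end for promoters and at the low end for distal peaks, and the library medians of the classes were far apart.

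**Figure D1:**
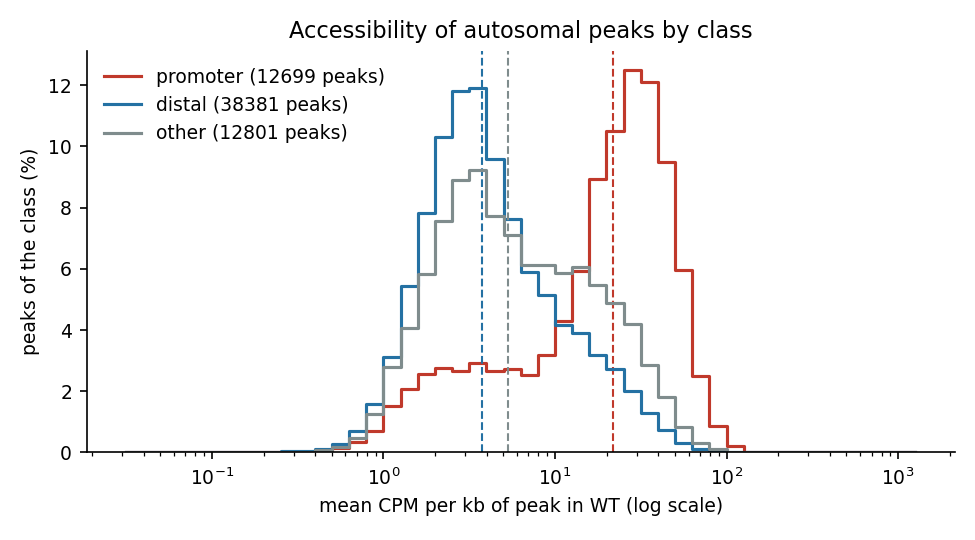
Distribution of mean accessibility in WT for the 12699 promoter, 38381 distal and 12801 remaining autosomal peaks. The horizontal axis gives the mean over 4 WT libraries in CPM per kb of peak on a log scale, the vertical axis the percentage of the peaks of a class in each bin, and dashed lines the class medians of 21.9, 3.73 and 5.32 CPM per kb. Promoter peaks form a main mass at high levels with a tail of weakly open members, whereas most distal peaks lie at low levels.

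The classes overlapped widely peak by peak. The middle 50% of promoter peaks lay between 8.86 and 35.3 CPM per kb, and the lowest 5% at or below 1.61, which is below the distal median. The highest 5% of distal peaks reached 23.9 CPM per kb or more, above the promoter median. Promoter peaks were also longer, with a median of 1482 bp against 772 bp, and richer in G and C, at 57.0% against 46.5%. Their median ratio of observed to expected CpG was 0.665 against 0.207 in distal peaks.

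The level was far lower in peaks that did not cover a start, and among those it was highest at 1 to 5 kb. Peaks that overlapped an annotated start had a median of 21.6 CPM per kb (13347 peaks), whereas the 349 peaks that ended within 100 bp of a start without covering it had 3.18. Peaks at 100 to 1000 bp measured 4.06, those at 1 to 5 kb 5.40, those at 5 to 10 kb 3.96, those at 10 to 50 kb 3.68 and the 811 peaks beyond 100 kb 3.29. The median G and C content of the peaks was 47.7% at 1 to 5 kb and 44.2% beyond 100 kb.

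Openness was concentrated in few peaks. Ranked by mean WT CPM, the most open 1% (639 peaks, each at 109.8 CPM or more) held 9.99% ± 0.144 of autosomal fragments (SD, n = 4), and the most open 10% held 50.2% ± 0.465. A single peak of ribosomal sequence, described below, took 1.03%, 0.913%, 0.819% and 0.802% of all fragments in peaks in WT replicates 1 to 4. Of the 639, 488 were promoter and 93 distal peaks, and 548 were in the most open 1% of every WT library taken alone. When peaks were instead split into 10 equal groups by CPM per kb, promoter peaks made up 68.2% of the most open group (29.8 CPM per kb or more) and 5.84% of the third lowest, but 9.99% of the lowest. The lowest group therefore held more promoter peaks than the groups just above it. Its median peak was 632 bp long and 46.3% G and C.

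Fragments were unevenly spread over the chromosomes. Leaving out peaks of repeated sequence (defined with the next results), chromosome 11 had 669 ± 4.57 CPM per Mb (SD, n = 4) and 41.0 peaks per Mb, followed by chromosome 19 with 571 ± 2.45 CPM per Mb and chromosome 17 with 523 ± 2.38. Chromosome 14 was lowest at 261 ± 2.23 CPM per Mb and 19.3 peaks per Mb, just under chromosome 3 at 269 ± 1.57. The gaps between these 5 chromosomes exceeded the SDs. The density of protein-coding genes was 13.4 per Mb on chromosome 11 and 7.22 on chromosome 14, although chromosome 7, with 13.9 genes per Mb, reached 457 CPM per Mb.

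The single highest peak was not a regulatory element of a protein-coding gene. It lay at chr17:39843097-39848702 over exons of AY036118, CT010467.1, Gm26917 and Gm42418, in an interval annotated as ribosomal RNA sequence, and measured 10277, 9130, 8194 and 8019 CPM in WT replicates 1 to 4 (8905 ± 1037 CPM). This was 12.4-fold the next autosomal peak. Replicate 1 was highest there, as it was in mitochondrial fragments. The next peaks included other repeated sequence, so rankings are given with and without it. A peak was classed as repeated when at least 50% of its bases were soft-masked or matched the mitochondrial or annotated ribosomal sequence, or when at least 3 other genome copies matched at 90% identity or more over at least 50% of its length, a rule chosen after seeing the data that applied to 4709 autosomal peaks.

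Among promoters, a pair of peaks in repeated sequence led the ranking by CPM per kb. Gm10800 and Gm10801, predicted genes of chromosome 2 with soft-masked shares of 81.3% and 63.9%, came first at 666 ± 31.2 and 216 ± 11 CPM per kb. The most open single-copy promoter was that of Khsrp, an RNA-binding protein that acts in splicing and mRNA decay (chr17:57031390-57032358, over the first exon), at 163, 163, 169 and 169 CPM per kb in WT replicates 1 to 4 (166 ± 3.51). All 4 libraries placed it above every value of the following promoters. Hdgfl2, a chromatin-associated protein of the HDGF family (chr17:56078759-56079850), measured 131, 134, 131 and 129 (131 ± 2.07). Cic, a transcriptional repressor downstream of receptor tyrosine kinase signalling (chr7:25267192-25268668), measured 128, 128, 127 and 129 (128 ± 1.05). Sp1, the GC-box-binding factor itself (chr15:102405240-102406950), measured 126, 124, 123 and 119 (123 ± 2.99). The ranges of Hdgfl2 and Cic met at 129, and Sp1 lay below Cic in each library.

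The remaining promoters of the first 10 were Hdac4, a histone deacetylase (118 ± 3.53), the recycling-endosome GTPase Rab11b (116 ± 2.54), the endoplasmic reticulum ubiquitin ligase Rnf5 (116 ± 4.88) and the aminopeptidase Dnpep (113 ± 4.15). Neighbours in this order differed by less than the larger of their SDs. With repeated sequence left out, Hjurp, the chaperone that loads the centromeric histone CENP-A, followed at 111 ± 1.47, and the shared promoter peak of Fbxo24 and Lrch4 at 110.3 ± 2.13. The Hjurp promoter averaged 169 CPM in WT and 123, 121 and 121 CPM in C, K and CK, whereas Khsrp averaged 161 CPM in WT and 156, 158 and 157 CPM. The difference at Hjurp was already known from these data and is given as values only.

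**Figure D2:**
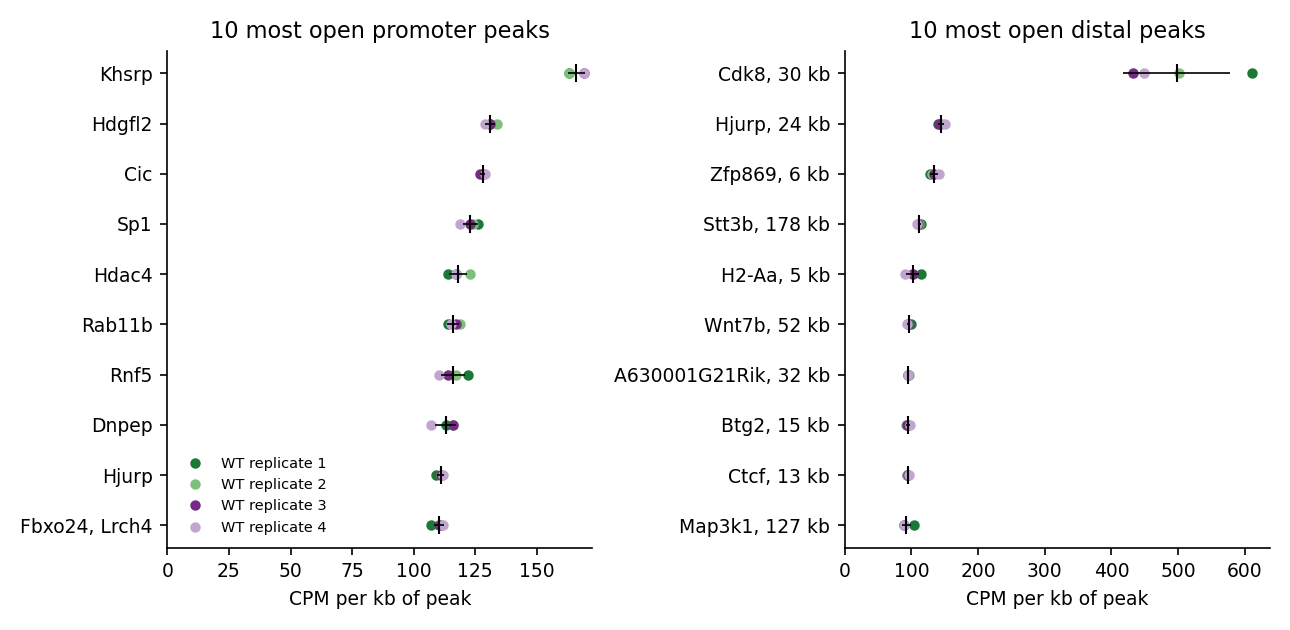
The 10 most open promoter peaks (left) and distal peaks (right) of WT with repeated sequence left out. Each row is a peak, named by its gene or by the nearest start and the distance to it, the horizontal axis is CPM per kb of peak, and each point is 1 of the 4 WT libraries. Library values cluster within each peak except for the distal peak in Cdk8, where they run from 433 to 611.

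Ranking by CPM, which favours long peaks, brought forward other genes. After Gm10800 (717 ± 33.6 CPM), the promoter peak of Junb, an AP-1 subunit, was highest at 301, 306, 293 and 292 CPM (298 ± 6.70, chr8:84974361-84980490). Cd74, the invariant chain that escorts MHC class II, measured 276, 305, 301 and 268 CPM (287 ± 18.3). Mnt, a MAX-binding antagonist of MYC, measured 279 ± 19.4 CPM and Myo1c, an unconventional myosin, 269.8 ± 3.01. Replicates 2 and 3 were high and replicates 1 and 4 low at Cd74, and its values overlapped those of Mnt (257 to 300.1 CPM) and of Myo1c (266 to 272). Per kb, Junb came to 48.6 ± 1.09 and Cd74 to 66 ± 4.21, far under Khsrp, since their peaks were several times longer. With repeated sequence left out, the next by CPM were Irf2bp2 (243 ± 6.34), the peak of Cfl1 and Mus81 (237 ± 5.34), the peak of the bromodomain gene Brd2 and the MHC class II chaperone gene H2-DMa (235 ± 6.51), a cluster of Hist1h histone genes (232 ± 14.1), Ppp2r3d (229 ± 13.9) and Hivep2 (222 ± 9.98).

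The least open promoter peaks held a few fragments each. Elmod1 (0.281 ± 0.342 CPM per kb) had 0 to 3 fragments per library, Megf11 (0.508 ± 0.517) 0 to 6 and H2afy2 (0.521 ± 0.127) 2 to 3. These peaks lay 189, 247 and 939 bp from the nearest coding start, in this order, and did not cover it. At such counts the order of the peaks cannot be resolved. The shared promoter of Snrpn and Snurf, imprinted genes expressed from the paternal copy, measured 0.390, 0.386, 0.557 and 0.466 CPM per kb (0.450 ± 0.0808) over 939 bp, from 7 to 11 fragments. Of promoter peaks of at least 1 kb, a view added after seeing the data, Casz1 was lowest by CPM at 0.941, 0.569, 0.714 and 0.547 CPM, then Reln at 0.784, 0.673, 1.09 and 0.656. Dok2, an adaptor of immune receptors, averaged 0.808 CPM, the amino acid transaminase Bcat1 0.847 and the kinase Hunk 0.885. The Dok2 peak lay 630 bp from the nearest coding start, over coding sequence, so its level is not that of the start itself. Each of these 5 wide promoter peaks had a higher mean in C, K and CK, on 7 to 23 fragments per WT library. The means ran from 0.934 CPM (Dok2 in C) to 1.86 (Bcat1 in C). Having the lowest WT means was the reason for naming these peaks, so no difference is read from this.

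The ranking of distal peaks depended on repeated sequence more than that of promoters. By the rule as set, the 10 most open distal peaks ran from 531 ± 52.0 to 128 ± 8.01 CPM per kb, and 7 of them had 3 to 17 further copies in the genome. The first overlaps the last exon and untranslated region of Lars2, 16519 bp from the start of Limd1 (3 copies), at 604, 532, 505 and 485 CPM per kb. The others with copies were an intergenic peak at chr3:5860345-5860823 (471 ± 67.5, 13 copies) and peaks in introns of Cmss1 and Filip1l (361 ± 55.5, 14 copies), Gphn (176 ± 23.4, 4 copies), Camk1d (142 ± 19.3, 17 copies), Jarid2 (129.7 ± 18.7, 16 copies) and Chl1 (128 ± 8.01, 8 copies). WT replicate 1 was highest in all 7, as it was in the ribosomal peak. A peak in an intron of Cdk8, a kinase of the Mediator complex (chr5:146260990-146261362), had no further copy in the mm10 genome but the same pattern, at 611, 501, 433 and 449 CPM per kb (498 ± 80.3). Whether these sequences share an origin with the ribosomal peak was not tested.

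The single-copy distal peaks near Hjurp, Zfp869 and H2-Aa each exceeded the 95th percentile of promoter peaks, 58.6 CPM per kb. The peak at chr1:88252544-88253867 in an intron of Mroh2a, 23639 bp from the start of Hjurp, measured 140.3, 146, 142 and 150 CPM per kb (144 ± 4.43). The intergenic peak at chr8:69716389-69717445, 5665 bp from Zfp869, measured 128, 131, 134 and 141 (134 ± 5.68). Replicate 4 was highest at both, and their ranges overlapped slightly. An intergenic peak 178360 bp from Stt3b followed at 112 ± 2.51. The peak 5498 bp from H2-Aa, an MHC class II chain that presents antigen to T cells, measured 115, 101, 102 and 91.2 (102 ± 9.56), with replicate 1 highest and replicate 4 lowest. Next came peaks near Wnt7b (96.0 ± 2.45), in an intron of the nuclear body gene Sp100 (95.3 ± 0.578), near Btg2, an antiproliferative gene (94.9 ± 2.43), in an intron of Agrp near Ctcf (94.8 ± 1.58) and 126704 bp from Map3k1 (92.7 ± 7.40). These 5 did not differ from one another beyond their spread.

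By CPM the widest distal elements led. With repeated sequence left out, a second peak in Mroh2a over coding sequence (chr1:88259306-88262226, 15280 bp from Hjurp) measured 187, 194, 187 and 217 CPM (196 ± 14.3). A 5356-bp intergenic peak at chr3:52395956-52401311, beyond the 3′ end of Foxo1 and 127620 bp from its start, measured 195, 192, 189 and 209 CPM (196 ± 8.73). Foxo1 encodes a transcription factor that the GC dark zone needs. Both peaks were highest in replicate 4. They were followed by a peak over coding sequence of Arhgef10, 12906 bp from Kbtbd11 (191 ± 9.84), and by peaks in an intron of Adora3 and Tmigd3 (175 ± 6.72), near Fbxo11, a ubiquitin ligase that targets BCL6 (173 ± 3.09), 97420 bp from Tomm20 (168 ± 13.4) and over coding sequence of Flt3 (166 ± 6.41). Mean CPM of the Mroh2a peak was 116, 126 and 124 in C, K and CK, and that of the Foxo1-side peak 190.3, 180.1 and 178.

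The least open distal peaks were at or near 0 in WT. One peak, at chr12:23080498-23080727 with 48 further copies, was the sole autosomal peak with 0 fragments in all 4 libraries. A count of 0 allows up to 3 fragments in a library taken alone at 95% confidence, and fewer per library over all 4 together. How fragments from copied sequence were placed was not tested. The peak at chr9:88095064-88097286, 229911 bp from Nt5e, had 0 to 2 fragments per WT library over 2223 bp (0.0346 ± 0.0232 CPM per kb). Peaks in an intron of Cpne4, at chr9:104874178-104874481 and chr9:104876958-104879161, had 0 to 1 and 0 to 4 fragments, and a repeated-sequence peak at chr4:78513368-78513621 had 0 to 1. Several of these had higher means in other genotypes, on the same consensus peak set: 3.07 CPM in C, 0.141 in K and 1.37 in CK at the Nt5e-side peak, and 3.09, 1.54 and 2.07 at the wider Cpne4 peak. At chr14:63561475-63562685, 17493 bp from Mtmr9, K averaged 6.03 CPM and WT, C and CK 0.149, 0.125 and 0.160. Per-library levels behind these means were not compared, since the peaks were named for being lowest in WT.

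Short motifs differed in share between the most and least open 10% of each class, alongside base composition. The central 300 bp were searched on both strands in peaks of at least 300 bp not classed as repeated, 12423 promoter and 31573 distal peaks. Peaks with fewer than 3 further copies could stay in this set. Shares are descriptions with no test. In promoters, the CCAAT box was present in 26.3% of all peaks, in 47.2% of the most open 10% of peaks (1242, 49.9 CPM per kb or more) and in 22.4% of the least open 10% (2.65 or less). The GC box was present in 54.8%, 71.5% and 45.6%, and the GC-rich ETS site in 4.52%, 6.52% and 0.483%. The NRF1 site GCGCATGCG stood in 1.52%, 1.85% and 0.242%. These windows differed little in G and C content, with a median of 63.7% in all, 64.7% in the most open and 62.0% in the least open 10%. Their CpG content was not compared, and the GC box, GC-rich ETS and NRF1 sites each hold a CpG. The E-box CAGCTG went the other way, at 14.9% in the most open and 17% in the least open 10%.

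In distal peaks, motif shares differed in both directions between the most open 10% of peaks (3157, 17.9 CPM per kb or more) and the least open 10% (1.59 or less). The PU.1-type ETS site GAGGAAGT was present in 6.35% of all distal peaks, 8.33% of the most open and 3.86% of the least open. The octamer ATTTGCAT, bound by POU2F factors with the coactivator POU2AF1, was present in 4.92%, 6.53% and 3.86%, and the EBF site CCCNNGGGA in 5.41%, 7.41% and 4.81%. The E-box CAGCTG bound by E2A was present in 18.3%, 21.7% and 16.4%. Several sites hardly moved: AP-1 stood at 10.7% and 9.57% in the most and least open 10%, the RUNX site TGTGGTT at 9.47% and 9%, and the interferon regulatory factor site GAAANNGAA at 11.5% and 12%. The BCL6/STAT site TTCCNNGAA was rarer in the most open 10%, at 3.42% against 4.69%. The MEF2 site CTANAAATA stood at 2.06% and 2.31%. The GC box was present in 12.4% of the most open and 6.18% of the least open. The CTCF core was present in 2.29% of all distal peaks, 1.93% of the most open and 0.507% of the least open. Here the median G and C content also differed, at 49.3% in the most open and 45.3% in the least open 10%.

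Signal was also summed over the locus of a gene, its body with 10 kb on each side, a sum that favours long genes. The long loci of Foxp1 and Ebf1 were among the highest once very long annotations are set aside. Of 20807 autosomal protein-coding genes, 13085 (62.9%) had a promoter peak and 4772 (22.9%) had no peak in the locus. The median locus with a peak held 3 peaks and 62.6 CPM. Gm20388 came first at 5550 ± 59.5 CPM, but its locus spans 4455 kb and 73 other coding genes, and Fgfr2, at 1654 ± 25.4 CPM, spans 2981 kb and 30 other genes. Foxp1, a transcription factor of the B lineage, followed at 1048, 972, 979 and 1039 CPM (1010 ± 39.6, 77 peaks), and Ebf1, which specifies the lineage with Pax5, at 807, 825, 824 and 879 CPM (834 ± 31.5, 43 peaks). The loci of Gm10800 and Gm10801 hold the same pair of repeated peaks (836 CPM), and Sfi1 (814 ± 70.9) holds 2 repeated peaks. Arid1b, a subunit of the BAF remodelling complex (782 ± 16.1), Ubac2 (744 ± 21.9) and Hivep2 (713 ± 14.4) completed the first 10. Foxp1 was above Ebf1 in each library. Divided by span, Foxp1 (617 kb) measured 1.64 CPM per kb and Ebf1 (411 kb) 2.03, beside a median of 1.26 over loci with a peak. With 50 kb on each side, most of the 100 highest loci were different ones, as given at the end. Further down were Pik3ap1, the adaptor that links the B-cell receptor to PI3K, at 679 ± 13.1 CPM and Bach2, a repressor of plasma cell differentiation, at 646 ± 27.9 CPM over 80 peaks.

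Promoter peaks took very different shares of these loci. Among the first 10, they held 100% of the signal at Gm10800 and Gm10801, 51.2% at Gm20388, 49% at Fgfr2 and 10.7% to 31.1% at the other 6. The shares were 11% at Foxp1, 10.7% at Ebf1 and 31.1% at Hivep2, and 12% at Bach2, further down the order. At Foxp1 the strongest peak stood 527.1 kb into the gene, at 81.5, 74.7, 79.4 and 79.3 CPM (78.7 ± 2.85), with others at 427.0 kb (67.5 ± 4.48) and 469.1 kb (66.1 ± 3.22). At Ebf1 a peak 5.2 kb upstream measured 88.8, 97.6, 96.2 and 96.6 CPM (94.8 ± 4.04), above the promoter in each library (87.1, 90.5, 87.5 and 91.3 CPM, 89.1 ± 2.15). At Bach2 a peak 10.6 kb into the gene held 24.1% of the signal, at 146, 149.7, 164 and 162 CPM (156 ± 8.98), and the promoter 77.8 ± 1.90. The Bach2 intron peak was therefore above the promoter peak in every library.

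Per kb of locus, short genes with several peaks came first. After Gm10800 (40.3 CPM per kb) and Gm10801 (38.3), the replication-dependent histone genes Hist1h3b (20.7 ± 1.29) and Hist1h2bb (18.1 ± 1.14), the mRNA-decay factor Zfp36 (18.1 ± 0.463), Junb (17.9 ± 0.312), Hjurp (17.5 ± 0.709), Gm49661 beside Junb (17.5), Hist1h2bg (16.9) and Hist1h4d (16.6) made up the first 10. Replicate 1 was lowest at the 4 histone loci, with Hist1h3b at 388, 426, 446 and 443 CPM per locus. The loci of Hist1h3b and Hist1h2bb overlap, as do those of Hist1h2bg and Hist1h4d and those of Junb and Gm49661. These entries are therefore not independent of one another. The median locus measured 1.26 CPM per kb. Among loci with a peak, the lowest were large neuronal or mesenchymal genes with 1 weak peak each: Npas3 (0.000337 CPM per kb), Rbms3 (0.000383), Cdh12 (0.000413), Cntn5 (0.000449) and Nrg3 (0.000544).

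The markers were open at their loci, and their promoters stood near the middle of all gene promoters for Bcl6 and Pax5 and higher for Cd79a. The Bcl6 promoter (chr16:23987947-23989464) measured 22.5, 21.2, 19.9 and 19.6 CPM per kb (20.8 ± 1.34), the 42.7th percentile of gene promoters with a peak. The Pax5 promoter (chr4:44710639-44714406) measured 24.8, 27.2, 25.3 and 25.7 (25.7 ± 1.03, percentile 53.2) and the Cd79a promoter (chr7:24896114-24898006) 39.9, 41.7, 41.4 and 44.3 (41.8 ± 1.81, percentile 80.7). By summed CPM over the locus, among all autosomal coding genes, the same genes stood at percentiles 93.8, 99.9 and 96.7. The Bcl6 locus held 182, 194, 191 and 192 CPM in 11 peaks (189.8 ± 5.21), of which the promoter gave 16.6% and a peak 3.4 kb into the gene 32.7% (62.1 ± 2.94 CPM). The Pax5 locus held 569.9 ± 26.6 CPM in 54 peaks, led by a peak 5.6 kb into the gene at 117, 119, 122 and 129 CPM (122 ± 5.33) above the promoter at 97.0 ± 3.87. The Cd79a locus held 235 ± 10.7 CPM in 3 peaks, the largest of which is the promoter of the neighbouring gene Arhgef1 (123 ± 4.90 CPM).

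Promoters of B-cell and GC genes were mostly open above the median of all genes with a promoter peak, 24.2 CPM per kb, which by construction 50% of such genes exceed. Counts are given of genes above that median, beside the list median and its SD over the 4 libraries. Of 12 B-lineage identity genes, all had a promoter peak and 11 stood above the gene median (list median 32.7 ± 2.19), from Cd22, an inhibitory co-receptor, at 15 ± 1.42 to the ETS factor Spib at 57.3 ± 3.31. Spib measured 54.3, 57.7, 55.3 and 61.7 CPM per kb and Cd22 13.5, 16.5, 14.3 and 16, so their ranges were far apart. The Spib peak (chr7:44533023-44534920) lay within 1 kb of the gene (chr7:44525993-44532071) but outside it, and did not cover a Spib start.

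Of 18 genes of the GC programme, 12 stood above the gene median (29.5 ± 0.6). Neil1, a DNA glycosylase of base excision repair, was highest at 52.9, 51.2, 53.4 and 57.9 CPM per kb (53.9 ± 2.88). Gcsam, a GC-restricted signalling adaptor, was lowest at 17, 18.2, 19 and 21.2 (18.8 ± 1.75). Bcl6, at 20.8, was in the lower part of its own list, above Gcsam and Rgs13, a regulator of G-protein signalling (19 ± 2.25). In the list of 12 mutation and repair genes 9 exceeded the median (31.8 ± 1.33), and the translesion polymerase Rev1 was lowest at 18.3 ± 0.931.

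Signalling and proliferation genes were likewise open. All 14 autosomal genes of B-cell receptor signalling had a promoter peak and 13 exceeded the gene median (39.3 ± 1.39), with the protease Malt1 highest at 69.0 ± 0.606. Of 18 cell-cycle genes, 14 exceeded it (30.1 ± 0.988), led by the replication clamp Pcna at 75.1 ± 1.99, and cyclin D2 (Ccnd2) was lowest at 12.3 ± 0.857. Among 16 genes of T-cell interaction, 15 had a promoter peak and 11 exceeded the median (32.2 ± 1.14). Cd74 was highest there at 66 ± 4.21 and Slamf1, an adhesion receptor, lowest at 8.27 ± 0.954, whereas Cd80 had no promoter peak but 6 peaks in its locus. All 12 housekeeping genes exceeded the median (38.9 ± 1.72), from Sdha at 26.2 ± 1.31 to Polr2a at 56.1 ± 2.26, a range that holds most of the B-lineage and GC genes.

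Genes of the B-cell states other than the GC covered a wide range, and the lists overlapped. The 9 naive and memory B-cell genes all had a promoter peak, but 3 exceeded the gene median (12.3 ± 0.553). Klf2, a quiescence factor, was at 62.0, 58.8, 61.3 and 59.4 CPM per kb (60.4 ± 1.5). Cd38, whose protein was gated out in the sort, stood at 7.95 ± 0.391, in the 20th percentile of gene promoters. Fas, whose protein was gated in, stood at 23.7 ± 2.05. Of 7 plasma cell genes, 6 had a promoter peak and 5 exceeded the median (28.5 ± 1.14), with Xbp1, a regulator of secretion, highest at 34.3 ± 1.31, the syndecan Sdc1 lowest at 13.1 ± 0.462, and Tnfrsf17 without one. Prdm1, which drives plasma cell fate, measured 28.3, 28.7, 28.4 and 27.7 (28.3 ± 0.412), above the Bcl6 promoter in each library.

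**Figure D3:**
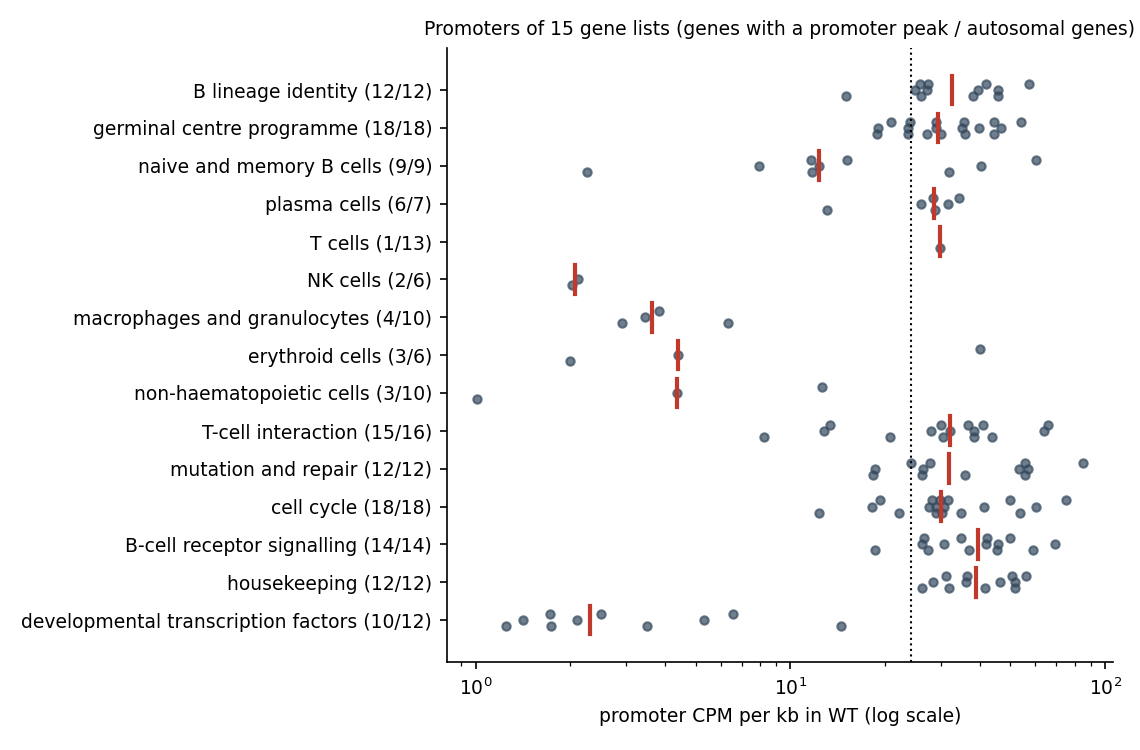
Promoter accessibility of the genes of 15 lists in WT. Each row is a list, with the number of genes that have a promoter peak and the number of autosomal genes in it, each point is the mean of 1 gene over 4 WT libraries in CPM per kb (log scale), ticks mark list medians, and the vertical line is the median of all gene promoters, 24.2. Genes of other cell types and developmental transcription factors lie mostly left of the line or have no promoter peak.

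Markers of other cell types mostly had no promoter peak or a weakly open one. Of 13 autosomal T-cell genes, 1 had a promoter peak, against 62.9% of all autosomal coding genes: Cd2, which mouse B cells also express, at 29.9 ± 2.13 CPM per kb. The defining genes Cd3e, Cd8a, Bcl11b and Themis had no peak in their loci, and Cd4 had 4 peaks summing to 35.1 ± 2.13 CPM but none at its promoter. Cd3g and Cd3d, which encode further chains of the same receptor complex as Cd3e, had 2 peaks and 1 peak in their loci but none at their promoters, summing to 61.8 ± 2.28 and 28.2 ± 1.53 CPM, beside a median of 62.6 CPM over loci with a peak. Of 6 NK-cell genes, 2 had a promoter peak, Eomes at 2.02 ± 0.218 and Prf1 at 2.12 ± 0.709, both in the lowest 10% of gene promoters. The locus of Klrb1c, which encodes the NK1.1 antigen, held 5 peaks and 88.9 ± 3.18 CPM with none at its promoter. Of 10 macrophage and granulocyte genes, 4 had a promoter peak, from Csf1r at 2.91 ± 0.402 to Cebpe at 6.35 ± 1.27. Lyz2, S100a8 and S100a9 had no peak in their loci, the only empty loci of this list. The loci of Cd14 and Elane held 4 and 5 peaks, summing to 54.7 ± 1.48 and 35.1 ± 1.33 CPM. That of Itgam held 6 peaks and 8.26 ± 1.07 CPM. Among 6 autosomal erythroid genes, Epor was low (4.38 ± 0.459), but Klf1 measured 39.5, 40.5, 39.4 and 40.3 (39.9 ± 0.574), above the gene median. Of 10 non-haematopoietic genes, 3 had a promoter peak, from Neurod1 at 1.01 ± 0.319 to Col1a1 at 12.6 ± 0.903.

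Summed over the promoter peaks of a list, the WT libraries ranged from 103 to 122 CPM for the T-cell list, from 5.19 to 6.01 for the NK list, from 17.7 to 26.0 for the macrophage and granulocyte list and from 54.8 to 56.9 for the erythroid list. The T-cell sum is the Cd2 peak alone, and it ranged from 90.7 to 118 CPM in C and K and from 87.5 to 100 in CK. The macrophage and granulocyte sum ran from 21 to 28.8 in C, from 19.7 to 25.7 for K libraries and from 20.6 to 28.2 for CK libraries, overlapping WT. The erythroid sum ran from 54.8 to 58.4 in C, from 54.4 to 62.9 for K libraries and from 54.5 to 61.8 for CK libraries, overlapping WT as well. For the NK list they ran from 6.61 to 7.07 in C, 6.08 to 7.74 in K and 7.72 to 9.11 in CK, above the WT range in each case. The part of other cells in any difference between genotypes was not tested.

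Promoters of developmental transcription factors were weakly open. Of 12 such genes, 10 had a promoter peak and 0 exceeded the gene median (2.30 ± 0.554). Pax6, an eye and brain regulator, was highest at 14.4, 15.3, 14.2 and 14 CPM per kb (14.5 ± 0.591), and Hoxd13, a limb patterning gene, lowest at 1.29, 1.66, 1.21 and 0.859 (1.25 ± 0.328). Nkx2-5 and Tbx5, cardiac factors, had no promoter peak. The summed level of this list was 80.6 to 87.6 CPM in the WT libraries, whereas C libraries held 92.5 to 95.9, K libraries 91.9 to 102 and CK libraries 105 to 112, so every WT library was below every library of the other genotypes. This comparison was noticed after the values were seen and was given no test.

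The WT libraries differed little at open peaks, and at weak peaks the median spread stood nearer to the counting error. The median coefficient of variation (CV) over the 4 libraries was 5.61% in promoter and 14.6% in distal peaks, beside median counting errors of 3.81% and 13.4%. Counting error is given as 1 over the square root of the mean count of a peak. The median CV that 4 libraries show from counting alone lies somewhat below that value, so the spread beyond counting is understated here. Below 0.5 CPM the median CV was 38.3% against 37.1% from counting, at 5 to 10 CPM 10.7% against 8.63%, and at 100 CPM or more 3.47% against 2.08%. From 10 CPM upward distal peaks had a higher median CV than promoters of the same level, with 8.79% against 7.63% at 10 to 20 CPM, 5.30% against 3.88% at 50 to 100 CPM and 4.48% against 3.22% at 100 CPM or more, where counting gives nearly the same value for both. At lower levels the classes were close, at 19.9% in both at 1 to 2 CPM, 14.4% against 14.5% at 2 to 5 CPM and 10.8% against 11% at 5 to 10 CPM. The biological coefficient of variation that edgeR estimated over the 4 libraries was 0.0674 as a common value, and 0.0921 as the median of its per-peak values. Without 1 library the common value ran from 0.0554 (without replicate 4) to 0.076 (without replicate 2).

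**Figure D4:**
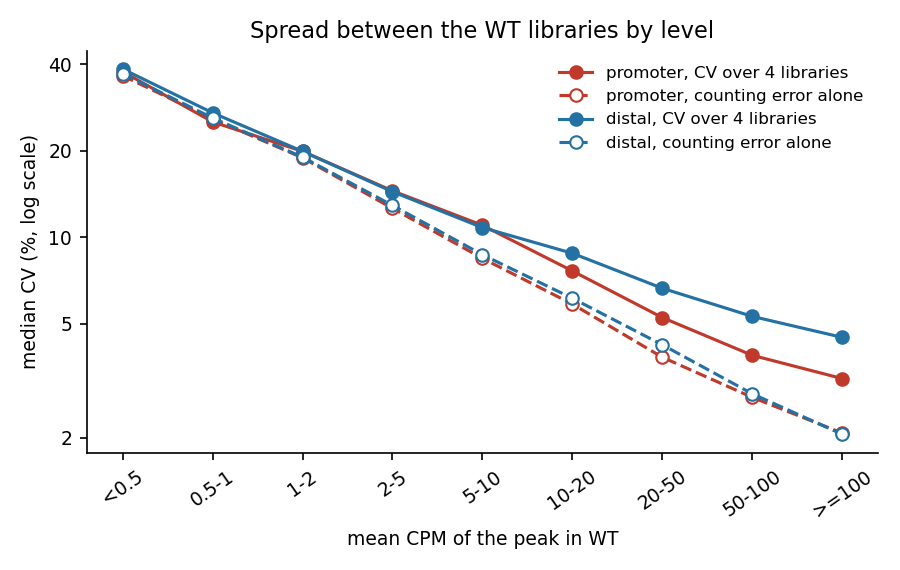
Spread between the 4 WT libraries by level of the peak. The horizontal axis gives bins of mean WT CPM and the vertical axis the median CV in percent on a log scale, for promoter and distal peaks. Filled points joined by solid lines are measured CVs and open points joined by dashed lines the CV that counting error alone gives; the measured CV falls from about 38% to 3.22% (promoters) and 4.48% (distal), and rises above counting error as peaks become more open.

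The mild differences between libraries were not shared equally. Of the 14548 peaks at 20 CPM or more, 4.49% in replicate 4 and 3.27% in replicate 1 lay over 1.2-fold from the mean of the other 3 libraries, against 0.880% in replicate 2 and 0.529% in replicate 3. The top lists were nonetheless shared: taken alone, the libraries held 93 to 97 of the 100 most open promoter peaks and 87 to 95 of the 100 most open distal peaks, with repeated sequence left out. Replicate 4 was the lowest in both.

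The peaks with the highest CV showed different libraries at the end. Among all peaks of at least 20 CPM, an intergenic peak 16034 bp from Rem2 varied most (CV 31.8%), at 20.3, 21.1, 22.6 and 37.3 CPM, with replicate 4 apart from the others. A peak in an intron of Ttc7b measured 23.7, 40.6, 41.3 and 25.3 CPM (29.2%), with replicates 2 and 3 high and 1 and 4 low. A repeated-sequence peak near H3f3b measured 31.6, 24, 23.9 and 15.3 CPM (28.2%), highest in replicate 1 and lowest in replicate 4.

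A pair of further variable peaks lay over GC or immunoglobulin genes and were singled out after their values were seen. A distal peak over the coding sequence of Gcsam, 9424 bp from its start, measured 16.8, 18.8, 23.1 and 29.5 CPM (CV 25.5%). A peak over the lambda light chain segments Iglj1 and Iglc3 measured 37.3, 40, 44.6 and 65.2 CPM (27.0%). Replicate 4 was highest at both, and the counting CVs were 4.84% and 3.33%. A high CV was the reason for naming both peaks, so no excess over counting is read from this. At the other end, the promoters of Zfp639 (0.166%), Pcyox1l (0.172%), Efr3a (0.203%) and the interferon regulatory factor gene Irf7 (0.312%), and a peak near Dtwd2 (0.318%), had CVs below their counting errors of 2.07% to 3.62%. No order is read from CVs under the counting error.

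Set beside the other genotypes, WT had a slightly lower share of fragments in promoter peaks than CK, while its differences from C and K did not pass the test. Each measure is 1 value per library, so WT libraries chose no peaks, and 9 exact two-sided permutation tests were run with Benjamini-Hochberg adjustment. The share in promoter peaks was 53.53%, 54.27%, 52.56% and 52.18% in WT (53.13% ± 0.948) and 54.32% to 55.88% in the 5 CK libraries (55.06% ± 0.586), a difference of -1.93 percentage points (exact permutation p = 0.00794, adjusted p = 0.0357). The groups did not overlap, by a narrow margin. In C it was 53.10% ± 0.734 (difference 0.0275, exact permutation p = 0.971) and in K 54.90% ± 1.36 (difference -1.77, exact permutation p = 0.114, adjusted p = 0.257). The WT and K ranges overlapped, but WT was below K in all 4 same-numbered pairs (exact paired permutation p = 0.125, the smallest that 4 pairs allow).

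The base composition of open chromatin moved in parallel. The mean G and C content of autosomal peaks, weighted by fragments, was 53.08% ± 0.176 in WT and 53.42% ± 0.122 in CK (difference -0.341, exact permutation p = 0.00794, adjusted p = 0.0357), against 53.06% ± 0.121 in C (exact permutation p = 0.800) and 53.36% ± 0.209 in K (exact permutation p = 0.171, adjusted p = 0.294). WT was below K in all 4 pairs here too (exact paired permutation p = 0.125). Since promoter peaks are richer in G and C, these measures are not independent. Both CK differences lost significance within the libraries that carried Y fragments (-1.64 percentage points for the promoter share) and within those that did not (-2.38), where 2 or 3 libraries stood on each side and the tests could not pass, and the direction was kept in both. When any 1 of the 4 WT or 5 CK libraries was left out, neither passed after adjustment (exact permutation, adjusted p of 0.0643 to 0.0857). The unadjusted exact permutation p was 0.0179 without a WT library and 0.0286 without a CK library. Both are the smallest that the remaining libraries allow, so this loss is not read as dependence on 1 library. The promoter-share difference stayed at -2.31 to -1.61 points in these fits. Neither CK difference passed after adjustment when peaks over 3000 bp or repeated sequence were left out. The promoter-share differences were then -1.92 and -1.90 points (exact permutation p = 0.0238 and 0.0159). Those in G and C content were -0.354 and -0.349. Their unadjusted exact permutation p stayed at 0.00794 in both settings, as with all peaks (adjusted p = 0.0714).

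Concentration in the most open peaks did not pass the test in any genotype after adjustment, although every WT library was above every C library. The most open 1% of each library's own autosomal peaks held 10.01% ± 0.146 of fragments in WT. The same share was 9.672% ± 0.143 for C libraries, 9.819% ± 0.209 for K libraries and 9.793% ± 0.299 for CK libraries. The WT and C ranges did not overlap (9.861% to 10.19% and 9.481% to 9.821%), with an exact permutation p of 0.0286, the smallest that 4 libraries against 4 allow, and an adjusted p of 0.0857. WT was above C in all 4 same-numbered pairs (exact paired permutation p = 0.125, the smallest that 4 pairs allow). With repeated sequence left out, the difference between WT and C was 0.233 percentage points, against 0.340 with all peaks, at the same p and adjusted p. For K and CK the exact permutation p with all peaks was 0.229 and 0.222.

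**Figure D5:**
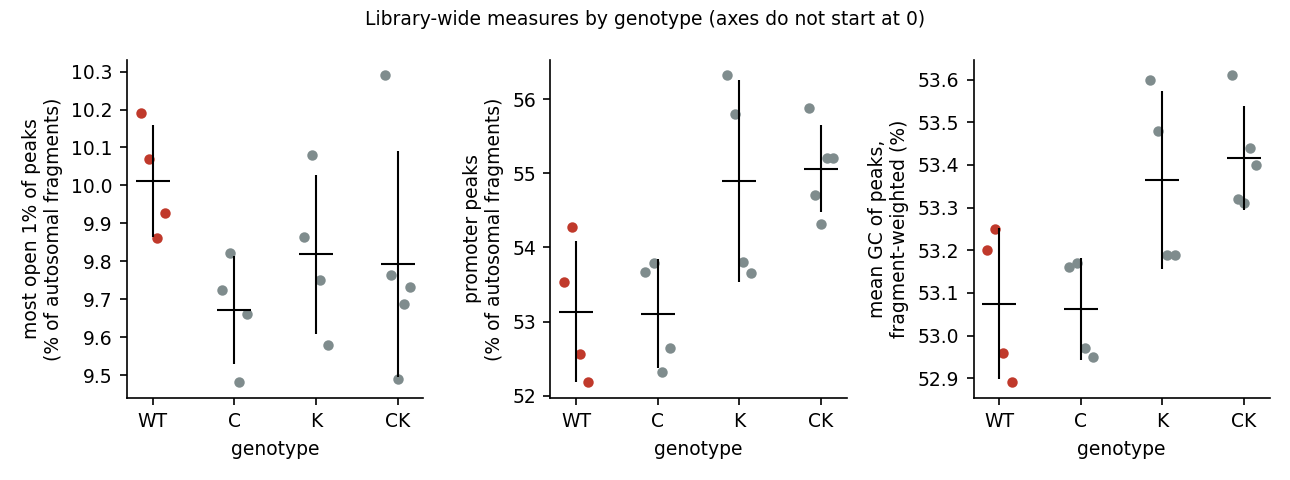
Library-wide measures in WT (n = 4), C (n = 4), K (n = 4) and CK (n = 5). Panels give the share of fragments in the most open 1% of a library's autosomal peaks (%), the share in promoter peaks (%) and the fragment-weighted mean G and C content (%); each point is a library and bars are the mean and SD. The axes do not start at 0. WT lies below CK without overlap in the last 2 panels, 52.18% to 54.27% against 54.32% to 55.88% for promoters.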

How the data were processed

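Nuclei of sorted GC B cells were tagged by the Omni-ATAC protocol and read as paired ends of 50 bases. Per the study's methods, the authors ran the nf-core/atacseq pipeline (version 1.2.1) against mm10. The deposited table holds whole-number fragment counts per consensus peak, made by featureCounts 2.0.1 per the file headers. A fragment needed 20% overlap with a peak and could count in several peaks. No deposited normalisation had been applied to the counts, and peaks were defined once for all genotypes. Consensus peaks were not called on WT alone, and peak width enters CPM per kb, so broad peaks with a sharp summit read low.

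Counts were divided by each library's total over all peaks, and means, SDs and CVs were taken over 4 WT libraries. Depth was 18293297 to 21016819 fragments in the WT libraries. Starts and gene models came from GENCODE M21 (basic), promoter sequences from RefSeq (GRCm38.p6), and copies were searched with BLAST 2.17.0. Genes with several promoter peaks were represented by the most open one. Named were the 10 highest and 5 lowest promoter and distal peaks per kb, the 5 highest by CPM, the 10 highest loci by sum and per kb, the 5 lowest loci, the 5 highest and lowest CVs at 20 CPM or more, and the ends of each gene list with the markers. Peaks without repeated sequence, wide closed promoters and further list genes were named after their values were seen. Some items that this rule names are not reported here. Members and gene lists were chosen with earlier results of these data known. Between genotypes, 1 value per library was compared by exact two-sided permutation tests (SciPy 1.17.1), adjusted over 9 tests. edgeR 4.0.16 (R 4.3.3) gave the dispersion and TMM factors and DESeq2 1.42.0 the alternative size factors. The script was tested on simulated counts. Libraries of the same replicate number deviated together between WT and C (correlations 0.13 to 0.37 over autosomal peaks) and between WT and K (0.14 to 0.32), so those numbers were taken to pair the samples by that measure, although the labels do not say what a number shares. Between WT and CK the correlations were 0.02 to 0.26. The 7 samples without a column were not used here. Alternatives covered scaling, filters on width and level, windows, single libraries, the replicate block, repeated sequence and Y fragments, the last pair added after seeing the data.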

Additional observations from a re-analysis of the deposited data

Results flagged for a closer look

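Of 80 sets of 4 or 5 libraries examined for a single library far from the rest (gap to the nearest library over the whole range), 3 stood past the 95% critical value, and chance flags about 1 in 20 such groups. The share of mitochondrial fragments stood out in WT, where replicate 1 had 1.81% and the other libraries 1.02%, 1.03% and 1.05% (gap over range 0.954). The distal peak 126704 bp from Map3k1 (chr13:111935697-111936862) stood out with replicate 1 at 121 CPM and the others at 103, 104 and 104 (0.920). The distal peak over Arhgef10, 12906 bp from Kbtbd11 (chr8:14992782-14998119), stood out with replicate 4 at 206 CPM and the others at 185, 185 and 187 (0.922).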

How the results depend on the processing

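Level medians, top lists and gene-list medians were recomputed under each alternative, and 548 of 620 recomputed values kept their direction and their side of the threshold or moved by less than the spread between libraries. When any 1 library was left out, the difference in promoter share between WT and CK stayed between -2.31 and -1.61 points. That in G and C content stayed between -0.398 and -0.280. Neither passed the threshold in these fits (exact permutation, adjusted p of 0.0643 to 0.0857), where the unadjusted p was the smallest that the remaining libraries allow. Nor did either pass it under several other alternatives: peaks of at most 3000 bp (-1.92 and -0.354), repeated sequence left out (-1.90 and -0.349), the replicate block (-1.89 and -0.344, with the smallest p that 4 pairs allow), libraries with Y fragments (-1.64 and -0.300) and libraries without (-2.38 and -0.418). For G and C content, the unadjusted exact permutation p stayed at 0.00794 with peaks of at most 3000 bp and with repeated sequence left out. The block, run within replicate numbers, changed no other call. The small difference between WT and C in promoter share changed sign to -0.0111 with peaks of at least 2 CPM, -0.00372 with a window of 5 kb and -0.115 in libraries without Y fragments, and ranged from -0.351 to 0.346 without 1 library. That in G and C content was -0.0309 in libraries without Y fragments and -0.0430 to 0.0750 without 1 library. The difference in the share of the most open peaks between WT and K was -0.121 for the most open 10%. The median promoter level moved to 22.6 CPM per kb with the autosomal total, 23.9 with peaks of at least 2 CPM and 17.2 with a window of 5 kb, and the distal median to 6.09 with peaks of at least 2 CPM. The median promoter CV was 6.13% with DESeq2 size factors, 3.85% and 3.77% in replicates 1 and 2 or 3 and 4 alone, 5.26% at 2 CPM or more, 6.90% with a 5 kb window and 4.96% to 5.78% without 1 library. The distal CV was 10.1% and 10.5% in these pairs, 10.9% at 2 CPM or more and 13% to 14.1% without 1 library. At equal spread a median CV over 2 or 3 libraries lies below that over 4. The values from pairs and without 1 library therefore do not measure a change in spread. With 50 kb on each side, 28 of the 100 highest loci were shared with the ranking reported. The cause of these shifts was not tested. At about 20 fragments per CPM, levels below 0.5 CPM were near the counting error.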
